A study of Mus musculus with 8 samples.

Results

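The collagen genes of mouse embryoid bodies were examined with and without forced expression of the transcription factor Oct6. They were taken as every gene of the deposited expression table whose whole symbol reads Col, a number, a, a number, without regard to expression. This gave 43 of the 22558 genes listed, chains of 26 collagen types in 9 structural classes. R1 and R1/E mouse embryonic stem cells, kept on feeder cells before differentiation, were grown as embryoid bodies, floating aggregates in which the cells differentiate. In the induced arm doxycycline switched on overexpression of Oct6, the POU domain protein encoded by Pou3f1, and RNA of induced and of control cells was sequenced on days 2, 4 and 6, as 1 library per arm and day. A chromatin immunoprecipitation (ChIP) of Oct6 and its input came from day 4 of neural differentiation of cells labelled as overexpressing Oct6. The series title addresses neural fate commitment.

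The labels limit the groups as a model in several ways. Doxycycline is named in the titles of the induced libraries only, and whether the control culture also received it is not stated, so an effect of doxycycline and an effect of Oct6 cannot be told apart. Nor is it stated which of R1 and R1/E each arm used. The library titles carry the prefix fbs, which the labels do not explain, while the growth protocol describes serum-free differentiation. The sources used here name neither the promoter of the transgene nor the number of clones.

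Collagens are extracellular proteins built from 3 chains wound into a triple helix, which requires a glycine at each turn of the repeat. Fibrillar collagens form the cross-striated fibrils of connective tissue, type IV collagens form the sheet of basement membranes on which epithelia and endothelia rest, and other classes decorate fibrils, form short networks or beaded filaments, or span the plasma membrane. In early embryos type IV collagen is laid down by extraembryonic endoderm and by the epithelia of the embryo, while most fibrillar collagen appears later, in mesenchyme, cartilage and bone.

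Oct6 peaks in collagen genes that differed most between the arms are shown first, with the peak of highest score inside any collagen gene. Further peaks of Col11a1 and Col8a1 are not printed. Each sequence is the plus strand of build mm9 over the whole 133 bases of the deposited peak. Capitals mark matches, on either strand, to the octamer ATGCAAAT, its variant ATGCTAAT or the shorter palindrome ATGCAT, the first the classic binding word of POU domain proteins and the others close to it or to its parts.
Col1a2, intron 1, chr6:4457730-4457862: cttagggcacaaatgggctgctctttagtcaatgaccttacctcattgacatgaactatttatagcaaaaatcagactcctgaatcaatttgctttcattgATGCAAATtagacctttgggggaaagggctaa
Col11a1, intron 1, chr3:113757582-113757714: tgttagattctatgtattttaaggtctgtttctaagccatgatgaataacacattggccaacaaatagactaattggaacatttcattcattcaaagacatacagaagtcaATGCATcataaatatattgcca
Col15a1, intron 2, chr4:47238925-47239057: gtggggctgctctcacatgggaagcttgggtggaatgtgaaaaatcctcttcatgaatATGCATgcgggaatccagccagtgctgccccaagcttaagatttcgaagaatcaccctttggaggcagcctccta
Col8a1, intron 1, chr16:57690727-57690859: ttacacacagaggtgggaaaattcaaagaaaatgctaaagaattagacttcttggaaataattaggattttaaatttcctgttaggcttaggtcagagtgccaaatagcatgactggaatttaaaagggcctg
Col25a1, intron 7, chr3:130172681-130172813: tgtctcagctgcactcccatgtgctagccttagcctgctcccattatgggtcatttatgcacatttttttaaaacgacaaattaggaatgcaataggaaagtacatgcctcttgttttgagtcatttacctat
The full octamer is in the Col1a2 peak only among these 5 sequences, at chr6:4457831-4457838 and 3017 bases after the annotated start of the gene. The Col11a1 and Col15a1 peaks hold the palindrome, and the Col8a1 and Col25a1 peaks hold none of the 3 words.

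The promoters of 4 collagen genes that differed between the arms are given, those of the Col4a1 and Col4a2 pair because the genes share a promoter region and differed in the same direction at days 4 and 6. The windows of Col8a1, Col11a1 and Col27a1, which also differed, are not printed and hold neither the octamer nor its variant. That of Col3a1, which was lower in induced cells at day 6, is not printed either and does hold the octamer. The sequences shown are RefSeq windows of 300 bases, 250 before and 50 after the transcription start, from assembly GRCm38.p6. They are printed on the strand of the gene. Each was found letter for letter once on its chromosome in mm9, and the mm9 positions are given. Capitals mark the CCAAT box, the TATA box in its form TATAAA and the 2 octamers named above, on either strand.
Col1a2, plus strand, chr6:4455368-4455667: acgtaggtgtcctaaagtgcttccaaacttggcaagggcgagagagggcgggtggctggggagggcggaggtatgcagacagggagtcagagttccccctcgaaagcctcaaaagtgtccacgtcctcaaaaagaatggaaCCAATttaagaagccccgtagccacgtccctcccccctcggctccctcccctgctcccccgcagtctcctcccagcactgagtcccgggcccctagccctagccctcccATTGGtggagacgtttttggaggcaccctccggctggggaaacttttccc
Col4a1, minus strand, chr8:11312777-11313076: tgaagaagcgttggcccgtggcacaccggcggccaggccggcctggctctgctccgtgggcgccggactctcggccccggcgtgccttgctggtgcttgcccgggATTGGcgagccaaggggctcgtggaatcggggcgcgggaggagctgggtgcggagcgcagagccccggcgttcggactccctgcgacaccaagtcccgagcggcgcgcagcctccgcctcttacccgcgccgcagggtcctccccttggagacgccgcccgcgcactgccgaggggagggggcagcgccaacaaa
Col4a2, plus strand, chr8:11312555-11312854: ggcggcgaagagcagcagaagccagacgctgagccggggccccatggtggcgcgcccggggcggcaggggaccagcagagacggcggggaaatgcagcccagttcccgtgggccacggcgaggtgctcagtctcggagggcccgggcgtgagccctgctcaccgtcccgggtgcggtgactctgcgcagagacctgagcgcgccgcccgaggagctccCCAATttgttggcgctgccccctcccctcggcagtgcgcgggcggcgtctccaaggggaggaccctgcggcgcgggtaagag
Col25a1, plus strand, chr3:129883513-129883812: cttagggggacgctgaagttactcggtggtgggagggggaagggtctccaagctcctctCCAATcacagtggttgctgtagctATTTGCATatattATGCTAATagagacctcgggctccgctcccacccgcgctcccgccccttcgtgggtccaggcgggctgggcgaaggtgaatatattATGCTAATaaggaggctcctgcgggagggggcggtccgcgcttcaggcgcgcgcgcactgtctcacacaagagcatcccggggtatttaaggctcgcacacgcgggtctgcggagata
The Col4a1 and Col4a2 starts lie 21 bases apart on opposite strands, so their windows share 78 bases. The Col25a1 window holds the octamer 167 bases before the start, in reverse orientation, and the variant ATGCTAAT at 2 further places. The Col1a2 window holds CCAAT at 2 places and no octamer.

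Expression is given as FPKM, fragments scaled to the length of the transcript and the depth of the library, which can be compared between genes. From the step between low FPKM values, depth was estimated at 2.5e+07 to 5.44e+07 fragments per library, so that 1 fragment in a transcript of 5 kb was worth 0.00368 to 0.00798 FPKM. On days 2, 4 and 6 Pou3f1 itself stood at 312, 222 and 86.8 FPKM in the induced arm, against 64.3, 10.1 and 4.76 FPKM in control cells, so the induced libraries fit their labels on each day. Differences between arms are those of log2(FPKM + 1), induced minus control, and a gene is counted as at least 2-fold higher or lower where this difference is at least 1 in size and the gene has an FPKM of at least 1 in either library of that day. The pseudocount of 1 understates the fold of weakly expressed genes. On days 2, 4 and 6 the median difference over all expressed genes was 0.17, 0.10 and 0.06, against which the differences of the collagens are to be read. No test exists within a day, which has 1 library per arm, and the p-values below measure the spread between days, not between cultures. In bulk RNA, fewer cells of a type and less RNA per cell cannot be told apart.

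Forced Oct6 went with a different set of collagen transcripts and with a different timing. At day 2, by the rule above, 8 collagen genes were counted as at least 2-fold higher in induced cells and 0 as lower. With a pseudocount of 0.1 in place of 1 these counts were 14 and 1. The 8 were the fibrillar chains Col1a2, Col27a1, Col11a1 and Col5a3, the 3 main chains of type VI collagen and the short-chain gene Col8a1. At day 6, 2 were counted as at least 2-fold higher in induced cells, Col8a1 and Col25a1, and 6 as at least 2-fold lower. The 6 included both main basement membrane chains, Col4a1 and Col4a2, and the fibrillar chains Col1a1 and Col3a1. Of the 28 collagen genes that reached 1 FPKM in some library, 9 were at least 2-fold higher on some day (32.1%), against 12.7% of all such genes, and 6 others were at least 2-fold lower on some day (21.4%), against 4.90%.

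The counts were set beside those of all genes expressed on the same day. At day 2, 8 of the 22 collagens expressed were higher (36.4%), against 9.72% of the 12586 genes expressed, and 0 were lower, against 1.83%. At day 4, 5 of 19 were higher (26.3%), against 6.09%, and 2 were lower (10.53%), against 2.11%. At day 6, 2 of 25 were higher (8%), against 3.37%, and 6 were lower (24%), against 2.10%. On days 2, 4 and 6 the expressed collagens had a median difference of 0.77, 0.00 and -0.29, beside the medians of all genes given above. These shares are descriptions of 6 libraries and carry no test.

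**Figure D1:**
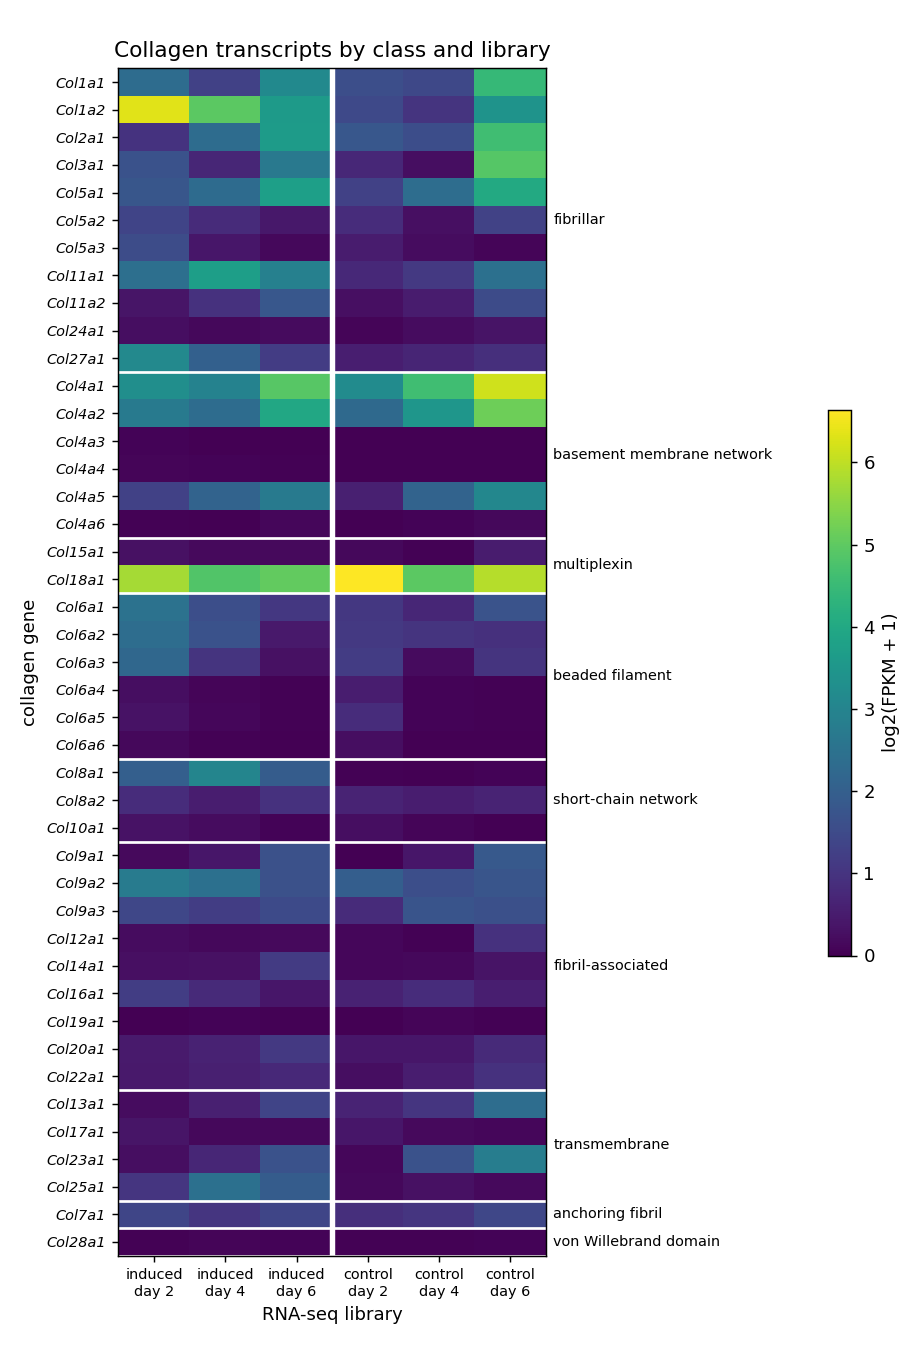
Level of each of the 43 collagen genes as log2(FPKM + 1), with 1 row per gene grouped by structural class and 1 column per library, the 3 induced libraries left of the 3 control libraries. Col1a2 is bright in induced cells at days 2 and 4 (80.2 and 30.4 FPKM) and dark in control cells on those days (1.76 and 1.0 FPKM), while Col4a1 and Col4a2 are brightest in control cells at day 6 (70.1 and 35.4 FPKM).

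**Figure D2:**
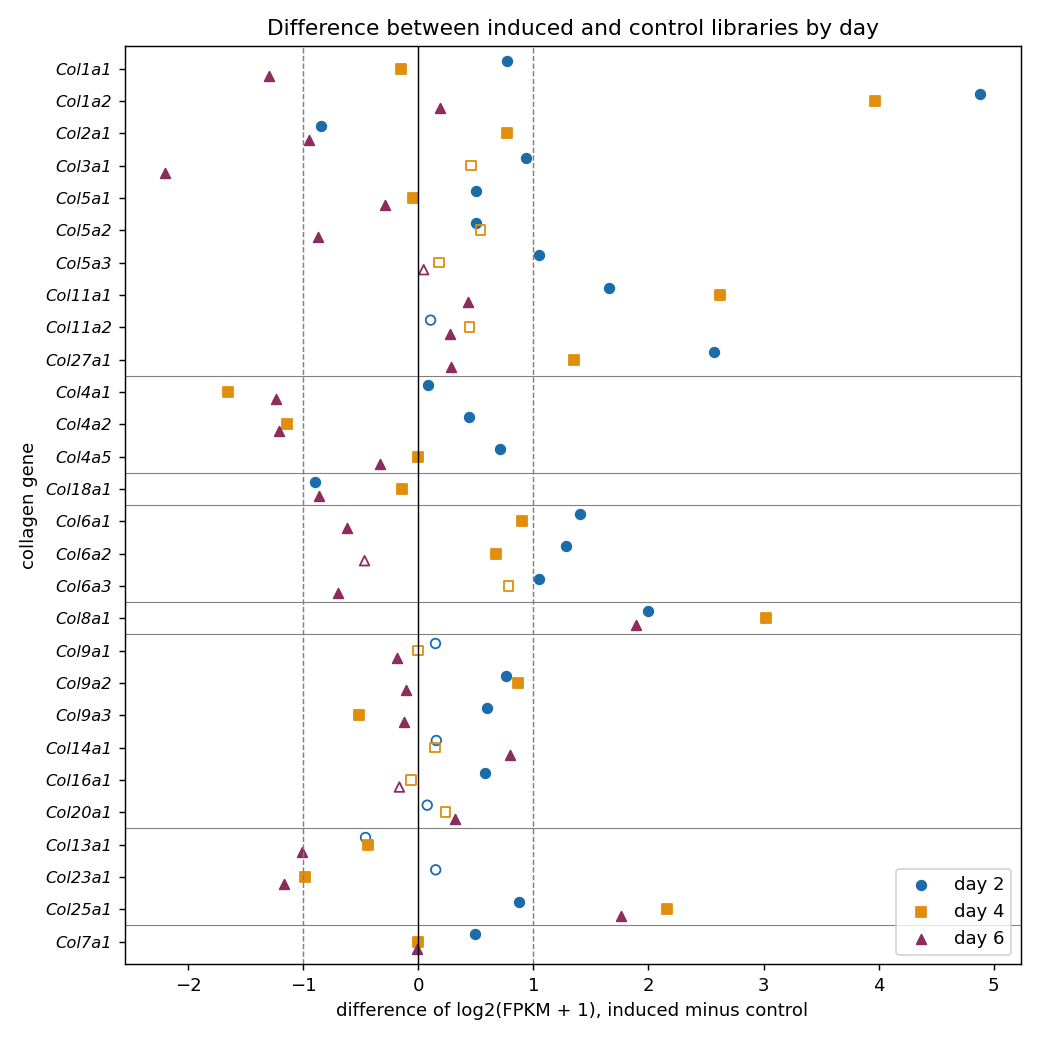
Difference of log2(FPKM + 1), induced minus control, for the 28 collagen genes that reached an FPKM of 1 in some library, with circles for day 2, squares for day 4 and triangles for day 6. Open symbols mark days on which both libraries were under 1 FPKM, dashed lines mark 2-fold, and grey lines separate the structural classes; Col1a2 lies farthest right, at 4.88 on day 2 and 3.97 on day 4.

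Summed over all 43 genes, the level on days 2, 4 and 6 was 205, 128 and 165 FPKM in the induced arm, against 135, 92.9 and 307 FPKM in control cells. The sum was thus higher in induced cells at days 2 and 4 and lower at day 6. Its make-up also differed at day 2. The 11 fibrillar genes gave 51.6% of the sum in induced cells at day 2, against 8.15% in control cells, where the multiplexin Col18a1 alone gave 73.1%. Col1a2 alone gave 39.0% of the sum in induced cells at day 2, and without it the sum of that day was 125 FPKM in induced cells and 134 FPKM in control cells. At day 6 the fibrillar share was close in both arms, at 36.1% in induced and 34.9% in control cells.

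**Figure D3:**
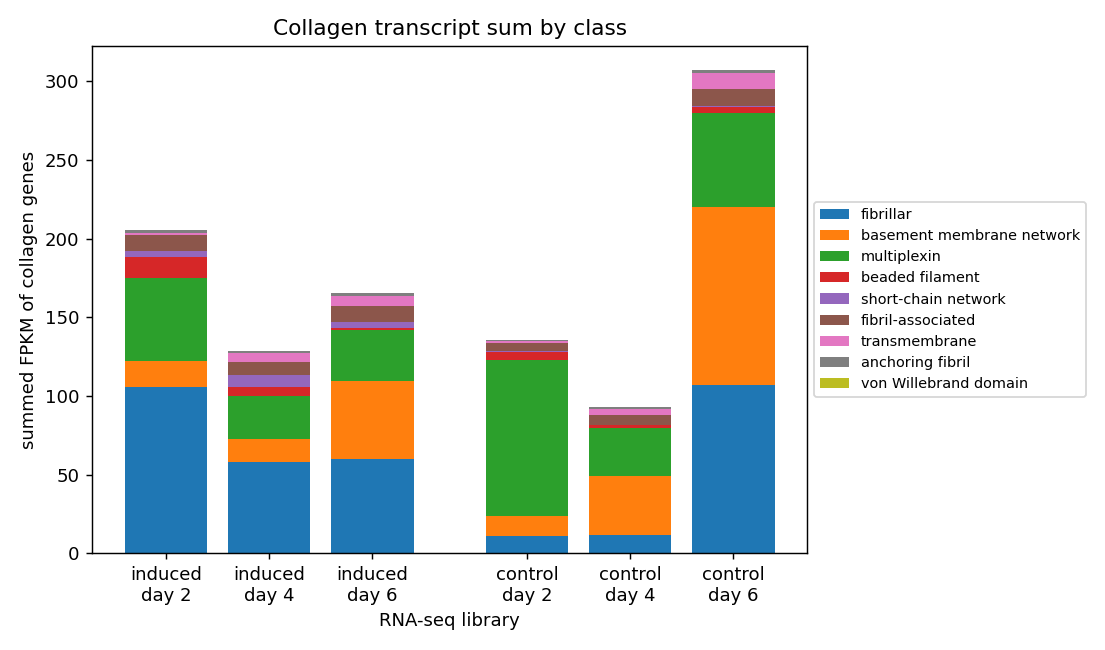
Summed FPKM of the collagen genes in each library, stacked by structural class, with the induced libraries left of the control libraries. On days 2, 4 and 6 the fibrillar part is 106, 58.1 and 59.6 FPKM in the induced arm and 11, 11.8 and 107 FPKM in control cells.

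Among the fibrillar collagens the widest gap was in Col1a2, the second chain of type I collagen, the main protein of tendon, skin and bone. On days 2, 4 and 6 it stood at 80.2, 30.4 and 11.2 FPKM in the induced arm, against 1.76, 1.0 and 9.72 FPKM in control cells. The arms did not overlap, and they came within a factor of 1.16 of each other at day 6 after ratios of 45.6 at day 2 and 30.3 at day 4. Col1a2 was the most abundant collagen transcript of induced cells at days 2 and 4. Its differences were 4.88, 3.97 and 0.19.

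The partner chain of type I did not share this pattern. Col1a1, which supplies the other chains of the same trimer, stood at 4.13, 1.46 and 7.90 FPKM in induced cells, against 2.01, 1.72 and 20.8 FPKM in control cells. Its differences on the 3 days were 0.77, -0.15 and -1.29, so control cells had more of it from day 4 on. Col3a1, the chain of type III collagen of skin, vessels and other pliable tissue, stood at 2.20, 0.639 and 5.46 FPKM in induced cells and 0.672, 0.192 and 28.6 FPKM in control cells, above control at days 2 and 4 and below it at day 6. At day 6 its difference was -2.20, the lowest of any collagen on any day. Col2a1, the fibrillar collagen of cartilage and of the notochord, stood at 0.960, 4.09 and 11.6 FPKM in induced cells and 2.51, 1.97 and 23.4 FPKM in control cells, and its sign changed from day to day (-0.84, 0.78 and -0.95).

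The minor fibrillar chains were split. Those of types V and XI join types I, II and III in fibrils and limit their width. Col11a1, a chain of type XI collagen of cartilage and of other early tissues, stood at 4.34, 12.3 and 6.44 FPKM in induced cells, against 0.691, 1.16 and 4.52 FPKM in control cells, a difference of 1.66, 2.62 and 0.43. Col27a1, a fibrillar chain of cartilage and developing epithelia, stood at 7.73, 3.12 and 1.28 FPKM in induced cells, against 0.470, 0.608 and 0.869 FPKM in control cells, a difference of 2.57, 1.36 and 0.28. Both were higher in induced cells on each day, and both gaps were narrowest at day 6. Col5a1, the main chain of type V collagen, was close in both arms at days 4 and 6. It stood at 2.45, 4.02 and 12.6 FPKM in induced cells and 1.44, 4.17 and 15.5 FPKM in control cells. At day 2 it was above control by a ratio of 1.71.

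Col5a3, another type V chain, was at 1.93, 0.311 and 0.101 FPKM in induced cells, against 0.413, 0.156 and 0.0649 FPKM in control cells. It passed 1 FPKM in induced cells at day 2 only, with a difference of 1.05. Col5a2 reached at most 1.57 FPKM and Col11a2 at most 2.5 FPKM, and neither had a difference of log2(FPKM + 1) of 1 or more in size. The pseudocount bears on this, since Col5a2 at day 6 stood at 0.345 FPKM in induced cells and 1.46 FPKM in control cells, a ratio of 0.237. The last fibrillar gene, Col24a1, reached at most 0.281 FPKM.

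Mesenchymal genes, too, were above control at day 2 and below it at day 6 in part. Of 14 fibroblast and feeder cell markers, 5 of the 11 expressed at day 2 were at least 2-fold higher in induced cells (45.5%, against 9.72% of all genes). They were Tagln, Acta2, S100a4, Postn and Prrx1. At day 6, 5 of the 10 expressed were lower, Acta2, Postn, Lum, Tagln and Dcn (50%, against 2.10%). At day 4, of 7 expressed, 2 were higher, Postn and S100a4 (28.6%, against 6.09%), and 3 lower, Thy1, Tagln and Acta2 (42.9%, against 2.11%). Their summed level was 61.6 to 102 FPKM in induced libraries and 29.6 to 294 FPKM in control libraries, and Fap was listed at 0 at day 6 in both arms. Postn, a matrix protein of collagen-rich tissue, stood at 1.5, 5.36 and 6.79 FPKM in induced cells and 0.143, 0.101 and 33.0 FPKM in control cells. Acta2, smooth muscle actin, stood at 2.80, 2.33 and 25.2 FPKM in induced cells and 0.494, 5.81 and 126 FPKM in control cells. Their part in the collagen differences was not tested.

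Of 8 cartilage markers, 2 were expressed at day 2 and at day 4 and 3 at day 6. At least 2-fold higher in induced cells was 1 at day 2 and at day 4 (50%, against 9.72% and 6.09% of all genes). At day 6, 1 was lower (33.3%, against 2.10%). Sox6, a cofactor of Sox9 in cartilage, was the one higher in induced cells at days 2 and 4, with 2.81, 2.16 and 1.16 FPKM in induced cells and 0.0587, 0.0810 and 1.39 FPKM in control cells. Hapln1, which links proteoglycans in cartilage, was lower in induced cells at day 6, at 5.93 FPKM against 13.7 FPKM in control cells. Acan, the main cartilage proteoglycan, stayed under 1 FPKM in all 6 libraries. The summed level of the list was 5.35 to 10.7 FPKM in induced libraries and 2.96 to 20.3 FPKM in control libraries, and its part in the levels of Col2a1 and Col11a1 was not tested.

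The 2 main basement membrane chains of type IV were less than 2-fold from control at day 2, with differences of 0.08 and 0.44, and below it later. Col4a1 stood at 8.80, 6.74 and 29.2 FPKM in induced cells, against 8.26, 23.4 and 70.1 FPKM in control cells. Col4a2, which joins Col4a1 in the common type IV trimer, stood at 5.54, 4.09 and 14.7 FPKM in induced cells, against 3.82, 10.2 and 35.4 FPKM in control cells. Induced cells had less than the control level by 2-fold or more at day 4 (differences of -1.66 for Col4a1 and -1.14 for Col4a2) and again at day 6 (-1.24 and -1.21). Control cells already held more Col4a1 at day 4 than at day 2, whereas induced cells passed their day 2 level at day 6 only.

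Col4a5, a chain of the type IV networks of kidney, lung and testis, did not follow the pair. It stood at 1.45, 3.30 and 5.72 FPKM in induced cells and at 0.499, 3.31 and 7.45 FPKM in control cells. The remaining chains Col4a3, Col4a4 and Col4a6 reached at most 0.109 FPKM in any library, and Col4a4 was listed at 0 in control cells at day 6.

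Col18a1, a basement membrane proteoglycan whose C-terminal fragment is endostatin, was the most abundant collagen transcript of control cells at days 2 and 4. It stood at 52.9, 27.6 and 32.2 FPKM in induced cells, against 99.1, 30.5 and 59.1 FPKM in control cells. The difference was -0.89, -0.14 and -0.86, lower in induced cells on each day but never by 2-fold. Its relative Col15a1 reached at most 0.414 FPKM. Col7a1, which anchors epithelial basement membranes to the tissue below, was close in both arms at days 4 and 6. It stood at 1.62, 1.04 and 1.62 FPKM in induced cells and 0.853, 1.04 and 1.65 FPKM in control cells. At day 2 it was above control by a ratio of 1.9.

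Markers of visceral endoderm, from tissue that lays down type IV collagen in the early embryo, were below control at days 4 and 6. Those expressed at day 2 were also below control then, when Col4a1 and Col4a2 were not (differences of 0.08 and 0.44). Of 8 visceral endoderm markers, 3 of the 4 expressed at day 2, all 8 at day 4 and 7 of 8 at day 6 were at least 2-fold lower in induced cells. These shares were 75%, 100% and 87.5%, against 1.83%, 2.11% and 2.10% of all genes, and 0 markers were higher on any day. Their summed level was 6.78 to 15.1 FPKM in induced libraries and 37.2 to 179 FPKM in control libraries, and none was listed at 0. Ttr, a carrier protein that visceral endoderm secretes, stood at 0.0955, 0.2 and 4.25 FPKM in induced cells, against 0.150, 26.6 and 48.0 FPKM in control cells. Dab2, an endocytic adaptor of that tissue, stood at 3.22, 3.69 and 5.82 FPKM in induced cells, against 12.3, 45.7 and 38.1 FPKM in control cells. The part of these cells in the type IV differences was not tested.

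Parietal endoderm, the thick-membrane producer of the yolk sac, gave a mixed picture. Of its 8 markers 7 were expressed on each day. At day 2, 3 were at least 2-fold higher in induced cells (42.9%, against 9.72% of all genes) and 0 lower (against 1.83%). At day 4, 1 was higher (14.3%, against 6.09%) and 1 lower (14.3%, against 2.11%). At day 6, 0 were higher (against 3.37%) and 1 lower (14.3%, against 2.10%). Sparc, a collagen-binding matrix protein abundant there, stood at 109, 97.4 and 144 FPKM in induced cells and 49.2, 102 and 253 FPKM in control cells. The summed level was 135 to 210 FPKM in induced libraries and 66.5 to 360 FPKM in control libraries. Of 7 endothelial markers, 6 were at least 2-fold lower in induced cells at day 6 (85.7%, against 2.10% of all genes). Of 3 expressed at day 2, 1 was lower, Pecam1 (33.3%, against 1.83%). Of 2 expressed at day 4, 1 was lower, Kdr (50%, against 2.11%), while Pecam1 was above control with a difference of 0.60. The summed level of the 7 was 3.60 to 15.1 FPKM in induced libraries and 8.83 to 48.7 FPKM in control libraries. Kdr, the receptor for vascular endothelial growth factor, stood at 0.0839, 0.834 and 5.44 FPKM in induced cells and 0.263, 6.97 and 13.2 FPKM in control cells, and Emcn was listed at 0 in induced cells at days 2 and 4 and in control cells at day 4. Whether these cells account for any of the type IV or Col18a1 difference was not tested.

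The 3 main chains of type VI collagen, which form beaded filaments around cells, stood on the same side of control on each day. Col6a1 stood at 4.63, 2.05 and 1.10 FPKM in induced cells, against 1.13, 0.628 and 2.23 FPKM in control cells. Col6a2 stood at 4.21, 2.22 and 0.380 FPKM in induced cells, against 1.14, 1.01 and 0.906 FPKM in control cells. Col6a3 stood at 3.67, 0.982 and 0.238 FPKM in induced cells, against 1.26, 0.150 and 1.0 FPKM in control cells. All 3 were at least 2-fold higher in induced cells at day 2 (differences of 1.41, 1.28 and 1.05) and were under the control level at day 6 (-0.62, -0.47 and -0.69). The call of Col6a3 ended when libraries were scaled by their median ratio (0.96), and with quantile normalisation so did those of Col6a3 (0.63), Col6a2 (0.89) and Col5a3 (0.81). The rarer chains Col6a4, Col6a5 and Col6a6 stood at 0.177, 0.242 and 0.0992 FPKM in induced cells at day 2, against 0.456, 0.8 and 0.183 FPKM in control cells, which was their highest level.

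Col8a1, a short-chain collagen of the endothelial and corneal basement layers, was close to 0 FPKM in control libraries. It stood at 3.06, 7.2 and 2.85 FPKM in induced cells, against 0.0184, 0.00814 and 0.0396 FPKM in control cells, where a few fragments make up the whole value. It was the one collagen counted as at least 2-fold higher on all 3 days, with differences of 1.99, 3.02 and 1.89. The pseudocount bears on this, since Col25a1 missed the count at day 2 only, with a difference of 0.88 but a ratio of 10.1. Col8a2, the partner of Col8a1, did not follow, with 0.780, 0.449 and 0.917 FPKM in induced cells and 0.576, 0.442 and 0.578 FPKM in control cells. Col10a1, the short-chain collagen of hypertrophic cartilage, reached at most 0.249 FPKM and was listed at 0 in control cells at day 6.

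**Figure D4:**
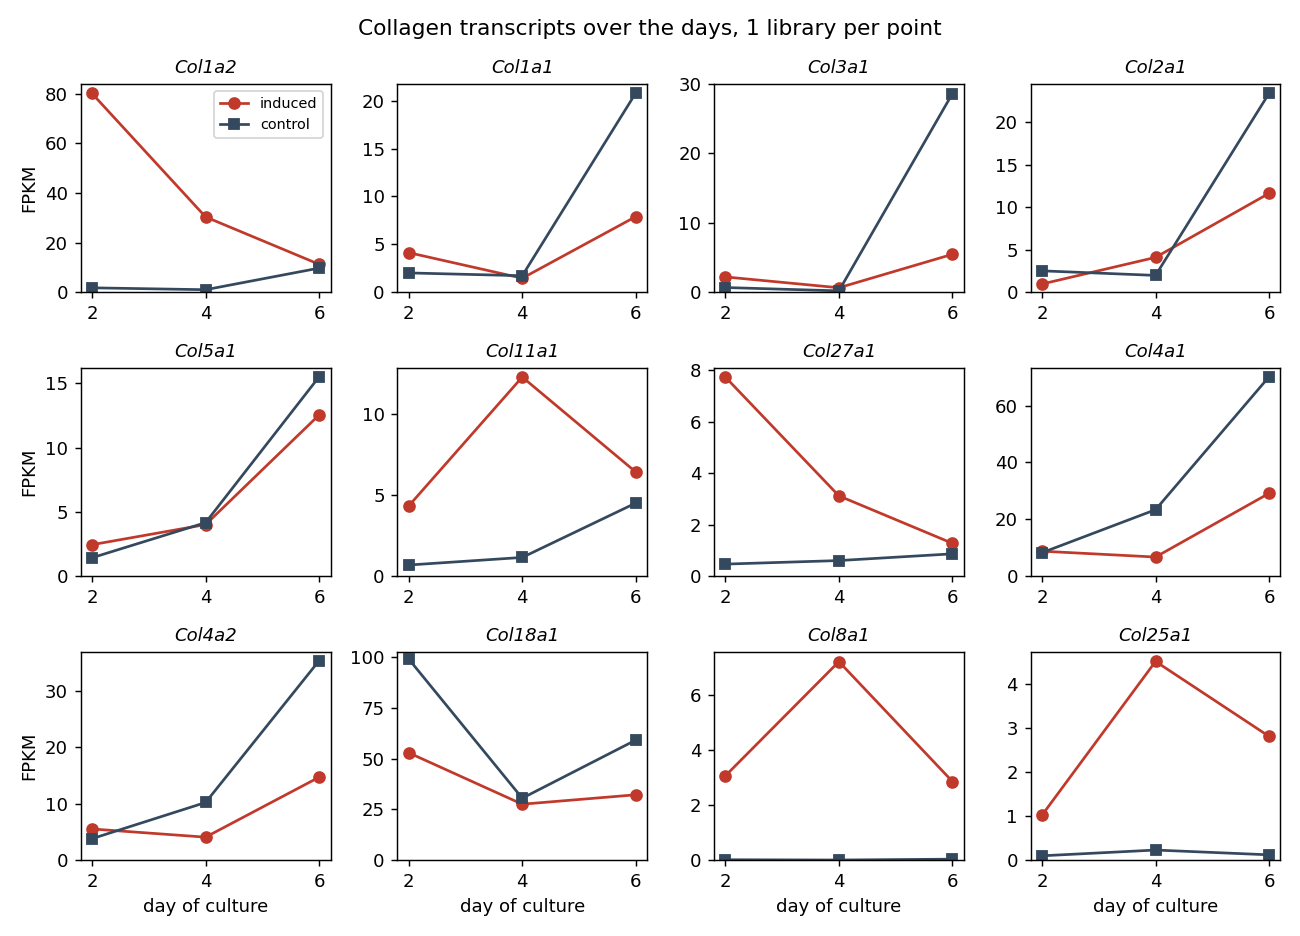
FPKM over day 2, day 4 and day 6 for 12 collagen genes, with circles for induced and squares for control libraries, 1 library per point and a linear axis from 0 in each panel. Induced cells start high and end near control for Col1a2 and Col27a1, lie above control throughout for Col11a1, Col8a1 and Col25a1, and lie below control at day 6 for Col1a1, Col3a1, Col4a1 and Col4a2.

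The transmembrane collagens went in opposite directions. Col25a1, a neuronal transmembrane collagen also known as the precursor of the amyloid plaque component CLAC, stood at 1.02, 4.51 and 2.81 FPKM in induced cells, against 0.101, 0.231 and 0.123 FPKM in control cells. Its differences were 0.88, 2.16 and 1.76. Col13a1, found at cell adhesion sites and at the neuromuscular junction, stood at 0.162, 0.509 and 1.57 FPKM in induced cells, against 0.595, 1.05 and 4.16 FPKM in control cells. Col23a1 stood at 0.196, 0.630 and 2.18 FPKM in induced cells, against 0.0758, 2.22 and 6.11 FPKM in control cells. Both Col13a1 and Col23a1 were at least 2-fold lower in induced cells at day 6, with differences of -1.01 and -1.16. Col17a1, of the hemidesmosomes of skin, reached at most 0.313 FPKM.

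Genes expressed by the neural crest, a mesenchyme source in the head, were partly higher in induced cells. Of 7 neural crest markers in the table, 3 of the 6 expressed at day 6 were at least 2-fold higher (50%, against 3.37% of all genes) and 0 were lower. The 3 were Pax3, Tcfap2b and Tcfap2a. Of 4 expressed at day 2 and at day 4, 1 was lower on both days, Foxd3 (25%, against 1.83% and 2.11%). In control cells at day 2 Foxd3 alone stood at 31.4 FPKM, out of 33.7 FPKM for the whole list. At day 4, 1 was higher, Pax3 (25%, against 6.09%). Pax3 stood at 0.531, 2.45 and 6.32 FPKM in induced cells and 0.163, 0.0355 and 0.854 FPKM in control cells. Sox10, a defining marker of migrating crest, stayed under 1 FPKM in all 6 libraries. The summed level was 9.84 to 28.2 FPKM in induced libraries and 11.6 to 33.7 FPKM in control libraries, and its part in the collagen differences was not tested.

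The fibril-associated collagens, which bind to the surface of fibrils, had no member whose difference of log2(FPKM + 1) reached 1 in size on any day. Col9a2, a chain of the type IX collagen that coats cartilage fibrils, was the most abundant, with 5.78, 4.52 and 2.14 FPKM in induced cells and 2.98, 2.03 and 2.38 FPKM in control cells. Col9a1 was at most 0.329 FPKM until day 4 and stood at 2.16 FPKM in induced and 2.59 FPKM in control cells at day 6. The pseudocount bears on this too, since Col14a1 at day 6 stood at 1.22 FPKM in induced cells and 0.275 FPKM in control cells, a ratio of 4.45, and Col9a2 at day 4 was above control by a ratio of 2.23. The other 7 genes of the class, Col9a3, Col12a1, Col14a1, Col16a1, Col19a1, Col20a1 and Col22a1, reached at most 2.31 FPKM. Col28a1, a von Willebrand domain collagen of the nervous system in a class of its own, reached at most 0.0705 FPKM.

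In all, 15 of the 43 genes stayed under 1 FPKM in every library and were left out of the counts of differences. The highest of them reached 0.926 FPKM, and the lowest peak level of a gene counted as expressed was 1.17 FPKM. The table listed 5 values of exactly 0 among the collagens, in Col4a4, Col6a6, Col10a1 and Col19a1, and an exact 0 in such a table can be a failed estimate. The 9 genes that reached 10 FPKM were Col1a1, Col1a2, Col2a1, Col3a1, Col4a1, Col4a2, Col5a1, Col11a1 and Col18a1.

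Over time, the collagens that differed were all higher at day 6 in control cells, while induced cells had some higher and some lower. From day 2 to day 6, 13 of the 21 collagens expressed in control cells were at least 2-fold higher at day 6 (61.9%), against 17.2% of all expressed genes, and 0 were lower, against 6.73%. In induced cells 10 of 28 were higher at day 6 (35.7%), against 7.22% of all expressed genes, and 7 were lower (25%), against 5.35%. The median change was 0.56 in induced cells and 1.71 in control cells, beside 0.09 and 0.22 over all expressed genes. The 7 lower at day 6 in induced cells were Col1a2, Col27a1, Col5a3, Col6a1, Col6a2, Col6a3 and Col9a2. Of these, Col1a2 was 2.73 lower at day 6 than at day 2 in induced cells and 1.96 higher in control cells. Col3a1 was 1.01 higher at day 6 in induced cells and 4.15 higher in control cells.

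Chains that assemble together were compared by the ratio of their FPKM within a library. Type I collagen is normally a trimer with more of the Col1a1 than of the Col1a2 chain. The ratio of Col1a1 to Col1a2 on days 2, 4 and 6 was 0.0515, 0.0480 and 0.702 in the induced arm, against 1.14, 1.71 and 2.14 in control cells. It was under 1 in each induced library and over 1 in each control library. The ratio of Col4a1 to Col4a2 varied less, from 1.59 to 1.98 across induced and 1.98 to 2.28 across control libraries, although both genes differed between the arms. The ratio of Col8a1 to Col8a2 was 3.92, 16 and 3.11 in induced cells, against 0.0320, 0.0184 and 0.0686 in control cells, and that of Col11a1 to Col11a2 was 14.6, 13.1 and 2.57 in induced cells, against 3.41, 2.74 and 2.40 in control cells.

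**Figure D5:**
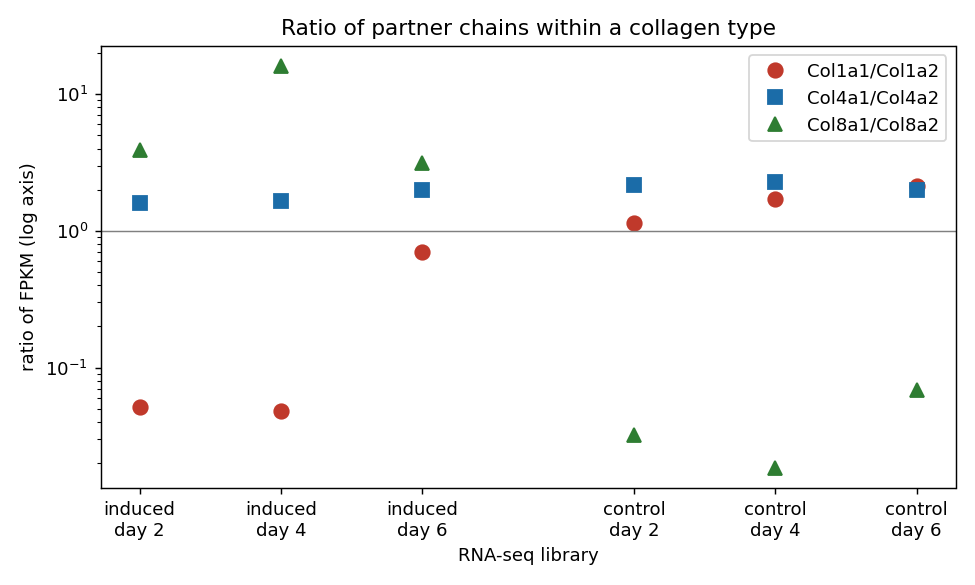
Ratio of the FPKM of partner chains within each library on a log axis, with circles for Col1a1 over Col1a2, squares for Col4a1 over Col4a2 and triangles for Col8a1 over Col8a2, and the induced libraries left of the control libraries. The line marks a ratio of 1; the squares stay between 1.59 and 2.28 in all 6 libraries, while the circles are lowest, at 0.0480, in induced cells at day 4.

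A difference common to the 3 days was tested with limma on all 13661 genes that reached 1 FPKM in some library, with day as a block and 2 residual degrees of freedom. Of the 28 collagens tested, 0 passed an adjusted p of 0.05 in limma, against 0.0146% of all genes higher (2 genes) and 0.00732% lower (1 gene). At an unadjusted p under 0.05, 5 collagens were higher in induced cells (17.9%), close to the 16.3% of all genes, and 3 were lower (10.7%), against 4.72%. The 5 higher were Col8a1, Col25a1, Col11a1, Col1a2 and Col27a1, and the 3 lower were Col18a1, Col13a1 and Col4a1. Col8a1 came first of these, with a mean difference of 2.30 ± 0.28 (SE) and a limma adjusted p of 0.0885, higher on 3 of 3 days. Col25a1 followed with 1.60 ± 0.29 and an adjusted p of 0.126, and Col1a2 had the widest mean difference, 3.01 ± 0.90, with an adjusted p of 0.179, its daily differences running from 0.19 to 4.88. Col18a1, at -0.63 ± 0.18, had an adjusted p of 0.169 and was lower on 3 of 3 days. In all, 9 of the 28 were higher in induced cells on all 3 days (32.1%), near the 34.6% of all genes, and 2 were lower on all 3 (7.14%), against 13.1%.

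Whether the difference between arms had a trend over the days was tested with the interaction of arm and day in limma. At an adjusted p of 0.05 there were 0 collagens, against 0% of all genes, and 5 collagens had an unadjusted p under 0.05 (17.9%), against 7.70% of all genes. Col27a1 had the lowest, with a slope of -0.57 per day and an adjusted p of 0.52, and Col1a2 had a slope of -1.17 per day and an adjusted p of 0.543. The courses described above therefore rest on the values of single libraries.

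Some of the genes that modify and fold collagen in the endoplasmic reticulum were higher in induced cells at day 2. Of 21 such genes, 4 of 18 expressed were at least 2-fold higher then (22.2%, against 9.72% of all genes). At day 4, 1 of 20 was higher (5%, against 6.09%) and 1 lower (5%, against 2.11%). At day 6, 0 of 20 differed either way. Serpinh1, the collagen chaperone HSP47, stood at 36.9, 91.4 and 155 FPKM in induced cells and 15.5, 70.6 and 233 FPKM in control cells. Plod1, a lysyl hydroxylase of the helix, stood at 13.3, 13.1 and 9.38 FPKM in induced cells and 4.48, 7.58 and 10.2 FPKM in control cells. P4ha1, a subunit of the prolyl hydroxylase that stabilises the helix, stood at 10.1, 11.5 and 21.8 FPKM in induced cells and 7.63, 20.7 and 29.8 FPKM in control cells. Plod2, which hydroxylates lysines outside the helix, stood at 26.1, 21.1 and 27.1 FPKM in induced cells and 22.5, 24.9 and 48.7 FPKM in control cells. Beside Serpinh1 and Plod1, those higher at day 2 were Fkbp14 and Leprel4, with differences of 1.33 and 1.01. At day 4 Glt25d2, a collagen galactosyltransferase, was higher, with a difference of 1.32, and the prolyl hydroxylase gene Leprel1 was lower, at -1.03.

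Several genes that trim procollagen and cross-link fibrils were higher in induced cells at days 2 and 4. Of 15, 5 of 11 expressed at day 2 (45.5%, against 9.72% of all genes) and 4 of 10 at day 4 (40%, against 6.09%) were at least 2-fold higher. At day 2, 0 were lower, and at day 4, 1 was (10%, against 2.11%). At day 6, 0 of 10 were higher and 1 lower (10%, against 2.10%). Pcolce, which enhances removal of the C-terminal propeptide of fibrillar collagens, stood at 57.7, 35.8 and 12.5 FPKM in induced cells, against 10.8, 4.79 and 8.16 FPKM in control cells. Bmp1, the protease that makes this cut, stood at 10.3, 15.7 and 22.9 FPKM in induced cells, against 1.88, 5.57 and 26.2 FPKM in control cells. Both were, like Col1a2, far apart between the arms at days 2 and 4 and closest at day 6. Lox, a lysyl oxidase that cross-links fibrils, stood at 1.80, 4.67 and 0.5 FPKM in induced cells, against 0.802, 0.123 and 0.0724 FPKM in control cells. Loxl2, an oxidase that cross-links type IV collagen, went the other way, with 3.07, 4.23 and 14.8 FPKM in induced cells and 4.51, 15.5 and 43.5 FPKM in control cells.

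Of 11 collagen receptors, 5 were expressed on each day. In the induced arm 2 were at least 2-fold higher at day 2, Itga1 and Itgb1 (40%, against 9.72% of all genes). At day 4, 1 was higher, Itga1 (20%, against 6.09%). Itga1, the integrin chain that pairs with Itgb1 to bind collagen, stood at 6.05, 5.36 and 1.38 FPKM in induced cells, against 0.555, 0.598 and 0.769 FPKM in control cells. Itgb1 stood at 126, 134 and 127 FPKM in induced cells and 57.6, 90.6 and 131 FPKM in control cells. The discoidin domain receptor Ddr1 was close in both arms, with 15.3, 18.4 and 30.2 FPKM in induced cells and 14.5, 22.3 and 23.6 FPKM in control cells, and Ddr2 stayed under 1 FPKM. Of 10 collagenases, gelatinases and their inhibitors, 2 of 7 expressed were at least 2-fold higher at day 2, Timp2 and Mmp2 (28.6%, against 9.72% of all genes). At day 4, 1 of 6 was higher, Timp1 (16.7%, against 6.09%). At day 6, 0 were higher (against 3.37%), and 0 were lower on any day.

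Partners of type IV collagen in basement membranes also differed by day. Of 9 in the table, 2 were at least 2-fold higher in induced cells at day 2 (22.2%, against 9.72% of all genes). At day 4, 1 was lower (11.1%, against 2.11%), and at day 6, 2 were lower (22.2%, against 2.10%). Fn1, fibronectin, stood at 178, 88.0 and 112 FPKM in induced cells and 60.9, 116 and 147 FPKM in control cells. Lamc1, the common laminin gamma chain, stood at 134, 45.1 and 38.0 FPKM in induced cells and 51.3, 44.0 and 59.0 FPKM in control cells. Lama1, the laminin alpha chain of the earliest basement membranes, stood at 4.10, 5.88 and 8.71 FPKM in induced cells and 5.58, 5.92 and 23.8 FPKM in control cells. In limma over the 3 days, 0 of the 98 genes tested from these lists and the marker lists passed an adjusted p of 0.05.

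Few Oct6 peaks lay near collagen start sites. A peak centre lay within 10 kb of the annotated start of 1 of the 43 genes, Col1a2, against 13.2% of the 21586 genes of the table that could be placed. Within 100 kb there was a peak for 15 of 43 (34.9%), against 48.9%. Inside collagen genes lay 12 peaks, in Col1a2, Col4a4, Col5a2, Col8a1, Col11a1, Col12a1, Col15a1, Col19a1 and Col25a1. Collagen genes are long, with a median of 114371 bases against 17691 over all coding genes. The share of all genes with a peak inside was not counted, so these 12 peaks have no background to be read against. The deposited list has 7965 peaks on placed chromosomes, each with the authors' score, from 7.6 to 145.6 with a median of 11.4. The Col1a2 peak scored 10.1, a value that 41.3% of the peaks had or fell under, and its centre lay 2982 bases after the annotated start and 2178 bases after the RefSeq start. The octamer it holds was in 4.19% of all peaks, ATGCTAAT was in 2.10%, ATGCAT in 19.5%, and any of the 3 in 24.3% of all peaks and in 5 of the 26 distinct peaks listed for collagen genes.

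The other peaks shown above lay farther from a start. That of Col15a1, a gene hardly expressed in these libraries, scored 26.6 and was number 75 of the list by score, 17958 bases after the start. In Col11a1 the nearest peak lay 24190 bases after the start and scored 10.1. A further peak in intron 29 of Col11a1 lay 99671 bases after the start, scored 13.9 and held 4 matches to ATGCAT. Another lay 83057 bases before the Col11a1 start and scored 10.1. In Col8a1 peaks lay 64057 and 108252 bases after the start and scored 12.7 and 10.1. The Col25a1 peak lay 288938 bases after the gene's start and 5764 bases before the start of a shorter annotated transcript, and scored 10.1. No peak lay closer than 445492 bases to the start of Col4a1 or 370279 bases to that of Col27a1, and Col18a1 had none within 697621 bases. With the start of any annotated transcript in place of the gene's own, 4 collagens (9.3%) had a peak within 10 kb, Col1a2, Col12a1, Col15a1 and Col25a1, against 15.2% of all genes. The ChIP was made at day 4 in cells labelled as overexpressing Oct6, so the list gives no comparison with control cells.

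The promoter windows of RefSeq covered 35 of the 43 genes, in 38 windows. The octamer was in 2 of these windows, those of Col25a1 and Col3a1, and in 1.74% of all 32851 promoters. The variant ATGCTAAT was in 1 window, that of Col25a1, and in 0.919% of all promoters. CCAAT was in 13 windows and in 37.4% of all promoters, and TATAAA in 5 and in 13.6%. Entries were not used here for Col1a1, Col2a1, Col4a3, Col5a2, Col9a3, Col12a1, Col14a1 and Col22a1.

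The fibrillar genes have a regular exon structure. Of the 649 coding exons of the 11 fibrillar genes 47.0% were exactly 54 bases long and 82.4% were a multiple of 9, the length that codes for 1 repeat of glycine and 2 other residues. Over all 43 genes these shares were 23.5% and 61.8%, and over all coding genes 0.671% and 14.5%. The short-chain genes lack this pattern, with 0 of 6 coding exons of 54 bases. Type IV exons followed it less, at 4.04% and 45.5%.

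The genes lie in a few clusters, of which type IV gives 3 pairs placed head to head. Col4a1 and Col4a2 start 21 bases apart on chromosome 8, Col4a4 and Col4a3 72 bases apart on chromosome 1, and Col4a6 and Col4a5 1309 bases apart on chromosome X. The first pair overlaps by 22 bases, and the sources used here do not say if libraries kept strand. Within the Col4a6 and Col4a5 pair the levels were far apart in each library, with a ratio of Col4a5 to Col4a6 between 31.0 and 309. Col3a1 and Col5a2 lie tail to tail, 24614 bases apart on chromosome 1.

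The genes next to Col1a2 differed less between the arms. Casd1, 59297 bases to its right, stood at 12.6, 15.2 and 25.5 FPKM in induced cells and 6.24, 11.8 and 22.8 FPKM in control cells, a difference of 0.91, 0.34 and 0.16. Bet1, 417842 bases to its left, had differences of 0.39, 0.12 and 0.22. Beside the type IV pair, Rab20, 4105 bases from Col4a2, had differences of -0.69, -1.01 and -0.33, and Irs2, 189965 bases from Col4a1, had differences of 1.71, -0.01 and -0.39. Beside Col8a1, Dcbld2 had differences of 0.74, 0.60 and 0.19 and 2610528E23Rik of -0.45, 0.14 and -0.07.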

How the data were processed

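The submitters' processing notes name build mm9 and the tools HOMER, Cuffdiff, Cufflinks 1.3.0 and TopHat 1.4.1. The deposited FPKM values were made by the authors, as 1 table of genes by library. The deposited peak list gives the authors' positions and score, of a scale the sources used here do not name, and the score served only to rank peaks. ChIP signal was not analysed here.

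Groups and days came from the sample labels. Differences of log2(FPKM + 1) were taken per day, and a gene was tested or counted from an FPKM of 1. The 3 days were tested with limma 3.58.1 under R 4.3.3 (a trended eBayes fit, blocked by day, adjusted by Benjamini-Hochberg over 13661 genes). The fit was also run on simulated data with no effect of day and planted differences equal on each day. That run cannot show how the fit behaves where differences change between days. Alternatives were a pseudocount of 0.1, scaling by median ratio, quantile normalisation, an FPKM of 5 or no minimum, leaving out each day and other peak distances. Peaks were placed on the mm9 assembly and its GENCODE annotation, which matched 95.7% of the symbols. Promoters came from RefSeq. Python 3.11.15, pandas 2.3.3 and numpy 2.4.6 were used.

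Members, gene lists and tests were chosen with earlier results of these data known. Given with values in every library were collagens that reached 10 FPKM, differed at least 2-fold on a day or had a peak within 10 kb, and, from each gene list, genes among the 4 with the widest difference on any day or of a fixed set (Serpinh1, P4ha1, Plod2, Lox, Ddr1, Ddr2, Sparc and Pou3f1). Other genes were named after their values were seen. The number of fragments is an estimate from annotated transcript lengths, and multi-mapping and overlapping genes are uncertain.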

Additional observations from a re-analysis of the deposited data

Results flagged for a closer look

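Of the 19 collagens expressed at both day 2 and day 6, 12 had a difference between induced and control cells of opposite sign on these days, and in 5 of them both differences were at least 0.5 in size. Each rests on 1 library per arm and day, so the change of sign was not tested by replicates. The same counts were not made over all genes, so they cannot be read as particular to collagens. The differences of log2(FPKM + 1), induced minus control, were 0.77 at day 2 and -1.29 at day 6 for Col1a1, and 0.94 and -2.20 for Col3a1. They were 0.50 and -0.87 for Col5a2, 1.41 and -0.62 for Col6a1, and 1.05 and -0.69 for Col6a3. In limma's fit of a trend over the days, the interaction of arm and day had an adjusted p of 0.834 for Col1a1, 0.804 for Col3a1, 0.733 for Col5a2, 0.588 for Col6a1 and 0.691 for Col6a3.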

How the results depend on the processing

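With a pseudocount of 0.1 the collagens at least 2-fold different were 14 higher and 1 lower at day 2 and 9 higher at day 4, and the day 2 median was 1.25. With quantile normalisation 5 were higher and 1 lower at day 2, with a median of 0.35, and 1 was lower at day 6 than at day 2 in control cells. Scaling by median ratio made 1 lower at day 2. With an FPKM of at least 5, 2, 3 and 0 were higher on days 2, 4 and 6, the medians were 1.24 at day 4 and -0.95 at day 6, and in induced cells 6 were higher and 3 lower at day 6 than at day 2. With no minimum the day 2 median was 0.16. A peak lay within 50 kb of the start of 5 collagens (11.6%, against 32% of all genes), within 100 kb of 15 (34.9%, against 48.9%), within 10 kb of any transcript start of 4 (9.3%, against 15.2%), and within 10 kb of 0 with the higher-scoring peaks only (against 4.62%). For the 23 differences of at least 2-fold, 115 alternative values were possible. Of these 100 stayed past the threshold, 4 lost it, 0 reversed, and 11 had no value because both libraries were under the FPKM of 5. In limma, 0 collagens passed the adjusted threshold under any alternative, with the day block, without it or without any day, and 5 to 11 had an unadjusted p under 0.05, with lowest adjusted p from 0.0854 to 0.55. Arms were paired by day through the day block, and the labels give no replicate numbers to pair by. Without replicate libraries, depth limits the values under a few hundredths of an FPKM, such as those of Col8a1 in control cells.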
